A study of Rattus norvegicus with 20 samples.

Results

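Glycine receptors and chloride transporters of rat globular bushy cells were followed over 3 postnatal ages through 7 genes: the receptor subunits Glra1, Glra2, Glra3 and Glrb, the scaffold gene Gphn, and the cotransporter genes Slc12a5 and Slc12a2. All probe sets that the platform annotation assigned to exactly 1 of these genes were taken, which gave 11 of the 31042 probe sets that were not controls. They represent 7 of 14217 genes that had a probe set of their own. Globular bushy cells of Sprague Dawley rats were labelled with cholera toxin B, a tracer carried back along the axon from the other side's medial nucleus of the trapezoid body, and the brains were frozen 24 hours later. From sections of 12 µm, 200 labelled cells per animal were cut out of the ventral cochlear nucleus with a laser, and the RNA was amplified linearly in 2 rounds before hybridisation. The ages were P3 (6 animals), soon after the calyx of Held forms, P8 (9 animals), a juvenile stage, and P21 (5 animals), when the synapse is mature. All animals received the tracer, and the labels name no genetic change or other treatment. Each array pools the cells of 1 animal, so that a smaller number of cells holding a transcript and a lower amount of it per cell cannot be told apart.

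Glycine receptors are chloride channels built of alpha subunits, which bind glycine, and the beta subunit, which ties the receptor to gephyrin, the scaffold under inhibitory synapses. In the developing brainstem and spinal cord of rodents, receptors rich in alpha2 are known to give way to receptors rich in alpha1. Whether an open glycine receptor lets chloride in or out depends on the chloride gradient. KCC2 (Slc12a5) keeps chloride inside the cell low by extruding it, and NKCC1 (Slc12a2) keeps it high by loading it. Glycine receptors have been described on bushy cell bodies and on the calyx of Held terminal itself, which in young rodents responds to glycine with depolarisation.

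Levels below are log2(intensity + 1) and are compared between ages within a probe set only, since probe sets differ in how brightly they hybridise. Of the 20 arrays, P8 replicates 5 to 9 stood apart: the mean of their 18 bacterial spike-in probe sets lay at 12.76 to 13.71, where the 15 other arrays had 8.29 to 9.09, and their median intensity of 58.9 to 67.5 compares with 23.8 to 32.5. Comparisons therefore rest on P3, P8 replicates 1 to 4 and P21. Most differences of the receptor and transporter genes are also given with all 20 arrays. Marker lists, related genes and correlations are given for the 15 arrays alone. Slc17a6, a vesicular glutamate transporter among the bushy cell markers, averaged 11.13 at P3, 11.47 in P8 replicates 1 to 4 and 11.28 at P21. Slc17a7, another one on that list, averaged 7.38, 6.73 and 8.66 in these groups. It was higher at P21 than at P3 by 1.28 (limma adjusted p = 0.048). Slc6a5, the transporter that defines glycinergic neurons, was at most 3.00 on any P21 array and 3.90 on any P3 array. Gad2 and Lhx5, also inhibitory neuron markers, were dim as well. Gad2 was at most 2.04 on any P21 array and 4.75 on any P3 array. Lhx5 was at most 3.61 on any P21 array and 3.92 on any P3 array. Some other inhibitory neuron markers were bright. Gad1 averaged 8.42 at P21 and 9.42 at P3, and Sst 7.54 at P21 and 9.46 at P3. Slc32a1 averaged 6.36 at P21 and 7.33 at P3. Probe sets above log2 4 on at least 5 of the 15 arrays were tested with limma, which left 21805. Of the 11 glycine receptor and chloride transporter probe sets 7 passed and 4 did not.

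Glra2, Glrb and Slc12a5 carry the changes with the largest or earliest steps described below, and their promoter sequences are shown for that reason. Each runs 5′ to 3′ on the gene's own strand, from 250 bases before to 50 bases after the RefSeq start in assembly GRCr8, at chrX:32651937-32652236 (plus strand) for Glra2, chr2:168505565-168505864 (minus strand) for Glrb and chr3:174115583-174115882 (plus strand) for Slc12a5. Capitals mark matches, on either strand, to a GC box (GGGCGG), an EGR-type motif (GCGNGGGCG) or a TATA motif (TATAAA); the E-box CACGTG was also searched and had no match in these 3.
Glra2: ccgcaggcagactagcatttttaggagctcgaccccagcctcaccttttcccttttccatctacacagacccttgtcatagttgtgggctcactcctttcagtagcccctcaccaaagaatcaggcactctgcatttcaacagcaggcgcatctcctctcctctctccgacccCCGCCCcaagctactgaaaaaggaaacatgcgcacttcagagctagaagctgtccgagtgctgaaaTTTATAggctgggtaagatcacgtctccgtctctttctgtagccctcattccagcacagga
Glrb: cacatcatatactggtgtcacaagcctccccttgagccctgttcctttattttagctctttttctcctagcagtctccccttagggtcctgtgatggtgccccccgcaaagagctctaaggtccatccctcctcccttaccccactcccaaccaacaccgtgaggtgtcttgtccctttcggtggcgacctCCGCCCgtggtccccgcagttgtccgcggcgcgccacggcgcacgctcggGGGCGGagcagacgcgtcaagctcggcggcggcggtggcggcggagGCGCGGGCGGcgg
Slc12a5: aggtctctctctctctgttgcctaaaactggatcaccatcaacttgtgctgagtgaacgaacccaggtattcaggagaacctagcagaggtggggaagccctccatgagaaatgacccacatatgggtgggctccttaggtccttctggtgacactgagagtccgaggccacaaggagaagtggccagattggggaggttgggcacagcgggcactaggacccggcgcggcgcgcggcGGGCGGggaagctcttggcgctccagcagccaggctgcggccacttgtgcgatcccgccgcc
The Glrb promoter held 3 GC boxes, of which the one at position 42 overlaps the EGR-type match at position 38, counted from the start base as 1 by the leftmost base of the match. It was 65.0% G or C with 28 CG pairs. The Slc12a5 promoter had 1 GC box, 61.3% G or C and 16 CG pairs. The Glra2 promoter had a GC box at position -77 and a TATA motif at position -11, both read on the opposite strand, with 52.3% G or C and 9 CG pairs. Among 33469 rat promoters of the same length in the RefSeq table, 33.1% held a GC box, 4.98% the EGR-type motif, 14.2% the TATA motif and 6.42% the E-box, and the medians were 51.7% G or C and 7 CG pairs. Promoters of 6 of the 7 genes were matched, all except that of Glra1. A match describes the letters of the window and is not a binding site.

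Across the whole span, Glra1, Glrb, Slc12a5 and Slc12a2 were higher at P21 than at P3, and Glra2 and Gphn were lower. These 6 of the 7 tested probe sets passed an adjusted p of 0.05 in limma, where 37.0% of all probe sets tested were called. Groups did not overlap for the same 6, against 27.3% of all probe sets tested. Between P3 and P8, Glrb and Slc12a5 rose, 2 of 7 probe sets where 14.8% were called over the array. Both were also the probe sets with no overlap between P8 and P3, against 13.6% of all. Between P8 and P21 Glra2 fell, 1 of 7 probe sets where 16% were called, and it was also the only one without overlap, against 13.5% of all. The 3 comparisons share arrays and are not independent of each other.

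**Figure D1:**
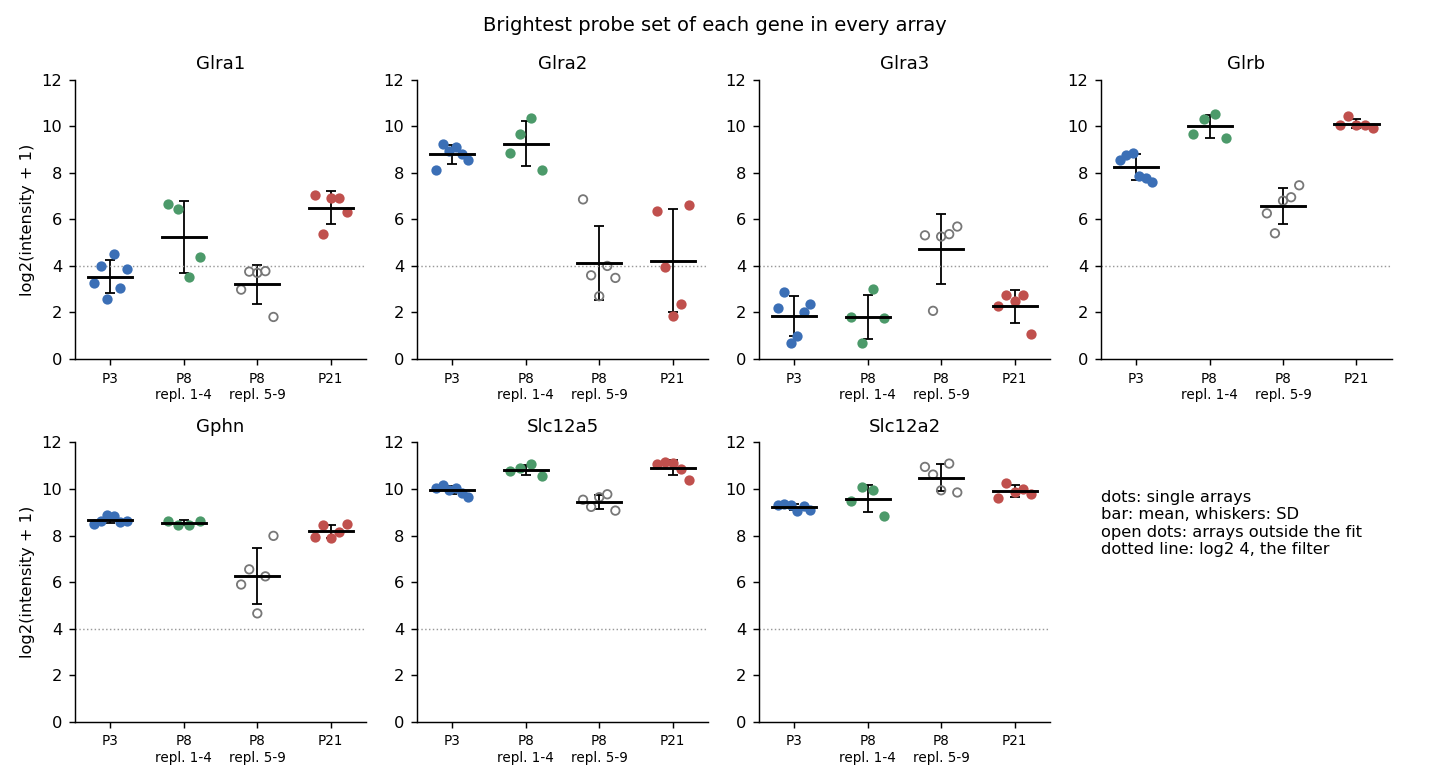
The level of the brightest probe set of each of the 7 genes, as log2(intensity + 1), on every array of P3, P8 replicates 1 to 4, P8 replicates 5 to 9 (open dots) and P21, with group mean and SD. Glra2 is high at P3 and P8 replicates 1 to 4 and low and scattered at P21, while Glra1, Glrb and Slc12a5 are higher at P21 than at P3.

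Glra2, the alpha subunit of immature receptors, was bright at P3, where its main probe set read 8.14 to 9.23 with a median of 8.89. P8 replicates 1 to 4 read 8.84, 9.68, 10.33 and 8.14. The P21 arrays read 6.37, 3.96, 1.85, 2.35 and 6.62. All P21 values lay below all values of the younger ages, and of the P21 arrays 2 were above and 3 below the filter level of 4. The mean was 4.23 ± 2.21 at P21 (SD, n = 5), against 8.80 ± 0.40 at P3 (SD, n = 6). Glra2 thus fell by 4.57 ± 0.76 (SE) at P21 relative to P3, with an adjusted p of 2.55e-04 from limma.
The step lay after P8: the P21 mean was below the P8 mean of 9.25 ± 0.96 (SD, n = 4) by a difference of -5.02 ± 0.84 (SE, adjusted p = 0.00101). P8 and P3 differed by 0.45 ± 0.81 (SE), which did not pass the test (adjusted p = 0.752). Over all alternatives the P21 minus P3 difference ran from -5.17 to -3.11 and the P21 minus P8 difference from -5.62 to -2.17, the smallest of these with all 20 arrays.
A second Glra2 probe set gave 2.07 to 4.34 at P3, 1.68 to 3.43 in P8 replicates 1 to 4 and 2.10 to 4.34 at P21. It overlapped between P21 and P3 and did not pass the test (-0.29 ± 0.46, SE, adjusted p = 0.659), so that the fall rests on 1 probe set. It passed the filter with exactly 5 arrays above log2 4.

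Of 2 controls read at both ends of the transcript, 1 moved with the fall of Glra2. The GAPDH control, at its 3′ minus its 5′ end, differed by 3.99 ± 0.66 at P21 (SD, n = 5) and by 2.91 ± 0.27 at P3 (SD, n = 6), a gap of 1.08 by an exact two-sided permutation test (p = 0.00216, adjusted p = 0.0195 over 36 tests). The beta-actin control differed by 4.32 ± 0.69 at P21 (SD, n = 5) and by 4.70 ± 0.30 at P3 (SD, n = 6), a gap of -0.38 that did not pass the same test (exact p = 0.238, adjusted p = 0.373). Among the P21 arrays the GAPDH difference was 3.31, 4.71, 4.10, 4.52 and 3.30 in replicates 1 to 5. The 3 arrays with the lowest Glra2 were the 3 with the largest differences. P8 replicate 3, with a difference of 3.86, had the highest Glra2 level of all arrays, 10.33. With the GAPDH difference as a covariate Glra2 fell by 3.11 ± 1.03 at P21 relative to P3 (SE, limma adjusted p = 0.0469). The GAPDH difference did not overlap between P21 (3.30 to 4.71) and P3 (2.52 to 3.20), so this covariate cannot be told apart from age. The part of RNA quality in the fall was not tested.

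**Figure D2:**
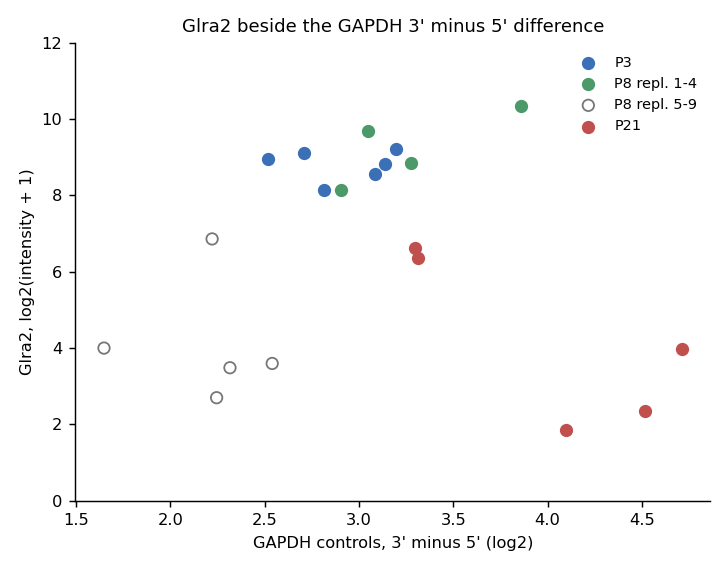
Level of Glra2 as log2(intensity + 1) against the GAPDH 3′ minus 5′ difference (log2) on each array, coloured by age, with P8 replicates 5 to 9 as open dots. The P21 arrays with differences of 4.10 to 4.71 have Glra2 at 1.85 to 3.96, and those near 3.30 have 6.37 and 6.62.

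Glra1, the alpha subunit of mature receptors, ran the other way and was low at P3, from 2.58 to 4.52 with a median of 3.56. P8 replicates 1 to 4 read 6.64, 6.45, 3.51 and 4.39, and P21 read 7.05, 5.37, 6.91, 6.92 and 6.30. All P21 arrays were above all P3 arrays, while the P8 arrays split into 2 at P21 levels and 2 at P3 levels. Glra1 rose to 6.51 ± 0.70 at P21 (SD, n = 5), against 3.54 ± 0.71 at P3 (SD, n = 6), a difference of 2.96 ± 0.54 (SE, limma adjusted p = 5.67e-04). Only 1 of 6 P3 arrays exceeded log2 4, so the probe set passed the filter mainly through the later ages, and over all alternatives the difference ran from 1.98 to 3.56.
The P8 mean exceeded that of P3 by 1.70 ± 0.58 (SE) and missed the threshold (adjusted p = 0.0593). Leaving out P8 replicate 3 or 4, or some other settings, brought it under 0.05, and over all alternatives the adjusted p ran from 0.0149 to 0.455. P21 exceeded P8 by 1.26 ± 0.60 (SE, adjusted p = 0.172). The second Glra1 probe set did not pass the filter, with 3.52 to 4.39 at P21 and 1.26 to 4.19 at P3. In a fit with no filter its difference between P21 and P3 was 1.04 (adjusted p = 0.0725).

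Glra3, another alpha subunit gene, had 1 probe set, which stayed at or below 3.00 on all 15 arrays and did not pass the filter. It read 0.68 to 2.89 at P3, 0.68 to 3.00 in P8 replicates 1 to 4 and 1.07 to 2.77 at P21, and the groups overlapped in every pair. Without a filter the difference between P21 and P3 was 0.41 (adjusted p = 0.564). No call of presence was made, so the low signal does not show that the Glra3 transcript was absent. P8 replicates 5 to 9 read 5.31, 2.07, 5.26, 5.36 and 5.69.

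Glrb, the beta subunit that all gephyrin-bound glycine receptors need, rose early and then held its level over the 15 arrays. Its bright probe set read 7.62 to 8.85 at P3 with a median of 8.22. P8 replicates 1 to 4 read 9.66, 10.30, 10.54 and 9.49, and P21 read 10.07, 10.45, 10.04, 10.05 and 9.93. Every P8 and P21 array lay above every P3 array, and the P21 arrays fell within the range of the P8 arrays.
Glrb rose by 1.75 ± 0.28 (SE) at P8 over P3 (limma adjusted p = 0.00131) and by 1.86 ± 0.26 (SE) at P21 over P3 (adjusted p = 5.72e-05). P21 and P8 differed by 0.11 ± 0.29 (SE, adjusted p = 0.836). The means were 8.24 ± 0.54 at P3 (SD, n = 6), 9.999 ± 0.50 at P8 (SD, n = 4) and 10.11 ± 0.20 at P21 (SD, n = 5).
The other 2 Glrb probe sets did not pass the filter. The first read 2.54 to 4.04 at P3, 2.83 to 3.93 in P8 replicates 1 to 4 and 3.09 to 4.90 at P21. The second stayed between 0.14 and 2.61 on all 15 arrays. Fitted without a filter, their P21 minus P3 differences were 0.47 (adjusted p = 0.322) and 0.45 (adjusted p = 0.484), so the rise of Glrb also rests on 1 probe set.

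**Figure D3:**
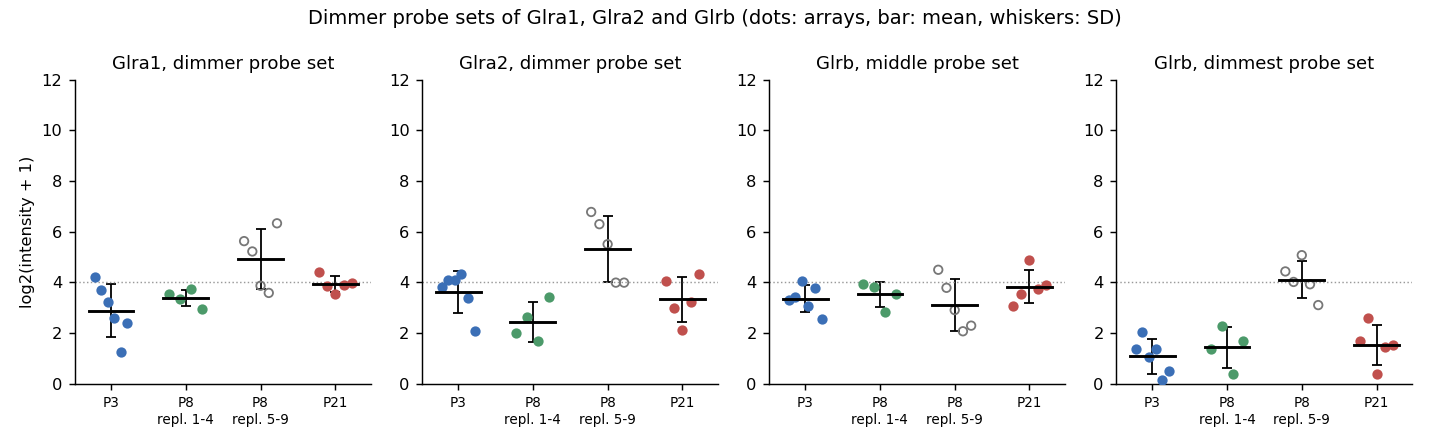
Levels of the 4 dimmer probe sets of Glra1, Glra2 and Glrb as log2(intensity + 1) on every array, with group mean and SD. P3, P8 replicates 1 to 4 and P21 lie near or below the dotted filter line at log2 4, and P8 replicates 5 to 9 (open dots) exceed it more often for Glra1, Glra2 and the dimmest Glrb set.

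Oligodendrocyte markers rose over the same ages, and so beside Glrb, Glra1, Slc12a5 and Slc12a2. All 10 tested markers were higher at P21 than at P3, and their mean level was 8.28 to 9.25 at P21 against 4.48 to 5.77 at P3, with 7.17 to 8.54 in P8 replicates 1 to 4. Mbp averaged 11.27 at P21 and 8.10 at P3. Markers of bushy and fast auditory neurons rose too, in 10 of 12 tested, with a mean of 9.95 ± 0.17 at P21 (SD, n = 5) and 7.13 ± 0.18 at P3 (SD, n = 6; exact two-sided permutation p = 0.00216, adjusted p = 0.0195). Inhibitory neuron markers fell in 5 of 6 tested, with a mean of 5.03 ± 0.39 at P21 (SD, n = 5) and 6.13 ± 0.45 at P3 (SD, n = 6; exact two-sided permutation p = 0.00216, adjusted p = 0.0195). Oligodendrocyte precursor markers fell in 4 of 5 tested and rose in 1, with a mean of 6.11 ± 0.46 at P21 (SD, n = 5) and 6.95 ± 0.22 at P3 (SD, n = 6; exact two-sided permutation p = 0.00433, adjusted p = 0.0214). Astrocyte markers averaged 8.62 ± 0.16 at P21 (SD, n = 5) and 8.79 ± 0.33 at P3 (SD, n = 6). This did not pass (exact two-sided permutation p = 0.335, adjusted p = 0.468), and of 8 tested 2 rose and 2 fell. Over all tested genes 21.4% were called higher and 19.5% lower in this comparison. The part of these other cell types in the changes of the receptor and transporter genes was not tested.

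Gphn encodes gephyrin, which also makes the molybdenum cofactor. Its only probe set read 8.51 to 8.90 at P3 with a median of 8.62, 8.64, 8.44, 8.47 and 8.63 in P8 replicates 1 to 4, and 7.94, 8.46, 7.90, 8.14 and 8.48 at P21. Every P21 array was below every P3 array, by a narrow margin between the highest P21 and the lowest P3 value. Gphn fell by 0.50 ± 0.14 (SE) at P21 relative to P3 (limma adjusted p = 0.0134). P8 against P3 (-0.14 ± 0.15, SE, adjusted p = 0.596) and P21 against P8 (-0.36 ± 0.16, SE, adjusted p = 0.140) did not pass. With the GAPDH difference as a covariate the P21 to P3 difference was -0.46 with an adjusted p of 0.159, and the call was lost.

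Slc12a5 (KCC2, the neuronal chloride extruder) followed the same course as Glrb. It read 9.67 to 10.19 at P3 with a median of 9.999. P8 replicates 1 to 4 read 10.79, 10.88, 11.08 and 10.56, and P21 read 11.09, 11.17, 11.12, 10.85 and 10.38. All P8 and P21 arrays lay above all P3 arrays, and P21 replicate 5 was the lowest of the later arrays. Slc12a5 rose by 0.87 ± 0.18 (SE) at P8 over P3 (limma adjusted p = 0.00558) and by 0.97 ± 0.17 (SE) at P21 over P3 (adjusted p = 3.58e-04). P21 and P8 differed by 0.10 ± 0.18 (SE, adjusted p = 0.775).

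Slc12a2 (NKCC1, which loads chloride and is also expressed by glia) showed no fall. It read 9.05 to 9.36 at P3 with a median of 9.28. P8 replicates 1 to 4 read 9.50, 10.07, 9.95 and 8.82, and P21 read 9.60, 10.28, 9.85, 10.02 and 9.77. All P21 arrays lay above all P3 arrays, while P8 replicate 4 lay below them. Slc12a2 rose by 0.67 ± 0.20 (SE) at P21 over P3 (limma adjusted p = 0.0178). P8 exceeded P3 by 0.35 ± 0.22 (SE, adjusted p = 0.295), and without P8 replicate 4 that difference was 0.61 (adjusted p = 0.0373).
The P21 to P3 call of Slc12a2 was lost with the GAPDH covariate (0.25, adjusted p = 0.563), and without P21 replicate 2 (adjusted p = 0.0510). Set beside each other, the P21 minus P3 difference was 0.97 for Slc12a5 and 0.67 for Slc12a2. The gap between both genes was not tested.

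**Figure D4:**
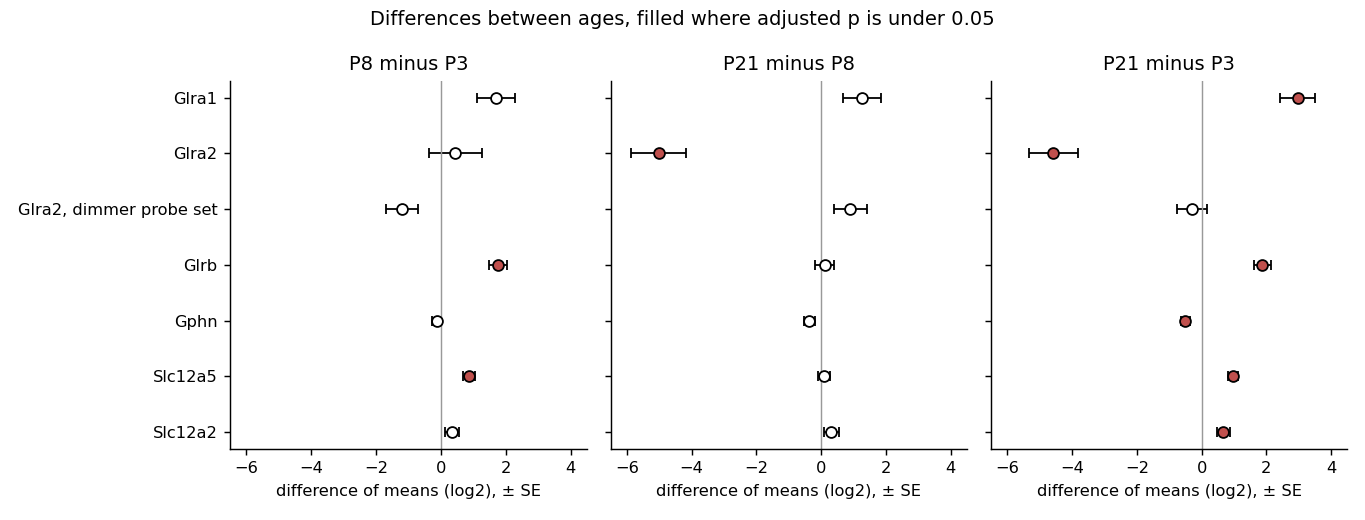
Differences between mean levels (log2, whiskers SE) for the 7 tested probe sets in the comparisons P8 minus P3, P21 minus P8 and P21 minus P3, filled where limma's adjusted p is under 0.05. Glrb and Slc12a5 are filled for P8 minus P3, Glra2 alone for P21 minus P8, and all except the dimmer Glra2 probe set for P21 minus P3.

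P8 replicates 5 to 9 differed from P8 replicates 1 to 4 in most of these genes. Glra2 read 6.86, 3.60, 2.70, 4.00 and 3.49 in replicates 5 to 9. Glrb read 6.26, 5.40, 6.80, 6.95 and 7.46, below every P3 array. Slc12a2 read 10.95, 10.62, 9.94, 11.09 and 9.85, higher than the P3 arrays, and Slc12a5 read 9.54, 9.23, 9.64, 9.77 and 9.07.
Gphn read 5.89, 6.55, 4.66, 6.25 and 7.99, and Glra1 read 2.98, 3.75, 3.70, 3.78 and 1.81. With all 20 arrays in 1 fit, 2 of 8 tested probe sets were called for P21 over P3, where 11.2% of all were called: Glra1 (adjusted p = 0.00501) and Glra2 (adjusted p = 0.0220). The adjusted p was 0.131 for Glrb, 0.0894 for Slc12a5, 0.243 for Slc12a2 and 0.726 for Gphn.
For P8 over P3 with 20 arrays, 3 of 8 were called where 27.3% of all were: Slc12a2 higher (0.85, adjusted p = 0.0371), Gphn lower (-1.40, adjusted p = 0.0467) and the dimmer Glra1 probe set higher (1.35, adjusted p = 0.0490). Glrb (-0.15, adjusted p = 0.876), Slc12a5 (0.11, adjusted p = 0.807) and the brighter Glra1 probe set (0.57) were not. For P21 over P8, Glra1 was called (2.40, adjusted p = 0.0148), 1 of 8 where 17.1% of all were, and Glra2 was not (-2.17, adjusted p = 0.169). The early rise of Glrb and Slc12a5 and the late fall of Glra2 thus hold in the fit without P8 replicates 5 to 9 and not in the fit with them.

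Genes of related pathways were counted through the brightest probe set of each gene, and set beside all 11834 tested genes, of which 21.4% had risen and 19.5% had fallen by P21 relative to P3 (limma, median difference 0.04). In the glycinergic and GABAergic presynapse list 8 of 12 genes were tested, 1 rose and 4 fell (median -0.51). Shmt1, which makes glycine from serine, fell by 1.47 ± 0.36 (SE, limma adjusted p = 0.00516). Its mean was 4.46 at P3 and 2.99 at P21, near or below the filter level of 4. Gad1, which makes GABA, fell by 0.99 ± 0.27 (SE, adjusted p = 0.0101), and Slc32a1, the vesicular transporter of GABA and glycine, fell by 0.96 ± 0.36 (SE, adjusted p = 0.0486). Shmt2, the mitochondrial counterpart of Shmt1, rose by 0.82 ± 0.27 (SE, adjusted p = 0.0262). Gad1 and Slc32a1 are also inhibitory neuron markers, and other such markers fell with them.

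Among gephyrin partners and genes of the inhibitory postsynapse, 21 of 32 were tested, 5 rose and 3 fell (median -0.08). Iqsec3, an exchange factor that binds gephyrin, rose by 1.93 ± 0.16 (SE, adjusted p = 4.59e-07). Nsf, the vesicle fusion ATPase, rose by 1.52 ± 0.22 (SE, adjusted p = 7.06e-05), and Kif5b, a kinesin motor, rose by 1.14 ± 0.15 (SE, adjusted p = 3.58e-05). Shisa7, an auxiliary subunit of GABA-A receptors, fell by 1.14 ± 0.36 (SE, adjusted p = 0.0213). Its mean was 4.61 at P3 and 3.47 at P21, near or below the filter level of 4.
Of the molybdenum cofactor genes 5 of 9 were tested and 2 rose (median 0.46). Mtarc2, a molybdenum enzyme, rose by 1.09 ± 0.33 (SE, adjusted p = 0.0185), and Mocos, which adds sulphur to the cofactor, rose by 0.46 ± 0.17 (SE, adjusted p = 0.0465).

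Other cation-chloride cotransporters were mostly dim, and 2 of 7 were tested. Neither passed: Slc12a7 differed by 0.33 (adjusted p = 0.459) and Slc12a9 by 0.31 (adjusted p = 0.267) between P21 and P3. Regulators of KCC2 and NKCC1 numbered 28 tested of 36, of which 9 rose and 5 fell by P21 (median -0.01).
Neto2, an auxiliary subunit that also binds KCC2, fell by 1.99 ± 0.43 (SE, adjusted p = 0.00210). Itpr1, a calcium release channel, rose by 1.93 ± 0.33 (SE, adjusted p = 3.80e-04), and Ckb, a creatine kinase that binds KCC2, rose by 1.44 ± 0.27 (SE, adjusted p = 6.63e-04). Wnk2, of the WNK kinases that act on both transporters, rose by 1.31 ± 0.17 (SE, adjusted p = 2.30e-05).

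Other chloride channels and anion exchangers had 20 of 28 genes tested, of which 9 rose and 6 fell by P21 (median 0.12). Car7, a neuronal carbonic anhydrase, rose by 1.95 ± 0.27 (SE, adjusted p = 5.40e-05), and Clcn4, an endosomal chloride-proton exchanger, rose by 1.61 ± 0.24 (SE, adjusted p = 9.48e-05). Slc4a4, a sodium-bicarbonate cotransporter known from astrocytes, fell by 1.76 ± 0.25 (SE, adjusted p = 6.83e-05). Lrrc8b, a subunit of volume-regulated anion channels, fell by 1.59 ± 0.32 (SE, adjusted p = 0.00114). The GABA-A receptor subunits, the other chloride channels gated by transmitter, had 12 of 19 tested, with 3 higher and 3 lower (median 0.09).
Gabra6 rose by 4.48 ± 0.59 (SE, adjusted p = 3.48e-05) and Gabrd by 2.39 ± 0.30 (SE, adjusted p = 2.44e-05), both known from cerebellar granule cells. Of the 6 tested cerebellar granule cell markers Gabra6 itself was the 1 that rose, Pax6 fell by 1.54 and the others did not pass, and the part of such cells was not tested. Gabra2 fell by 2.20 ± 0.68 (SE, adjusted p = 0.0196) and Gabrb1 by 1.11 ± 0.36 (SE, adjusted p = 0.0252).

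**Figure D5:**
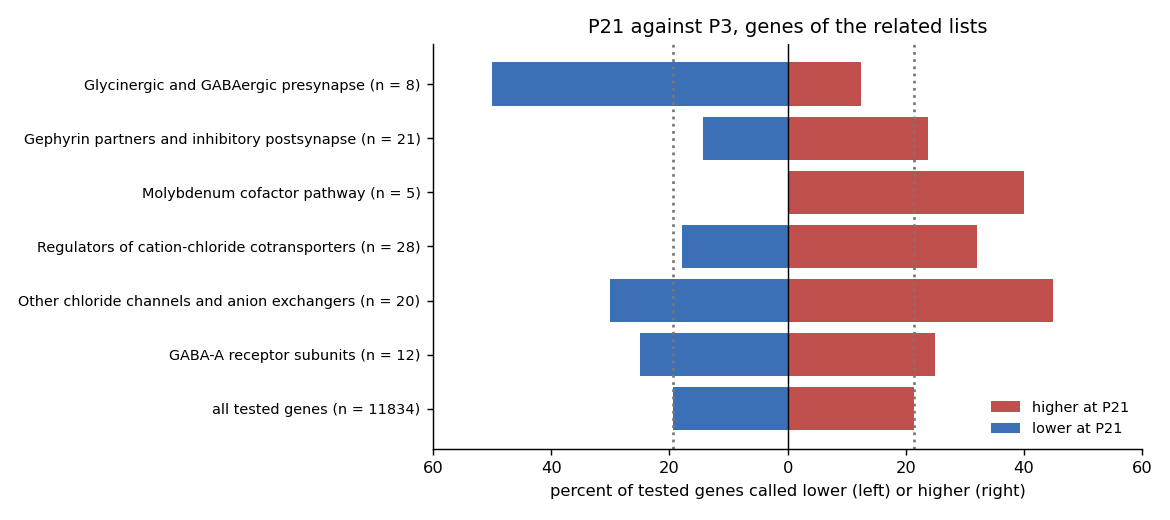
Percent of the tested genes of each related list that limma called higher (right) or lower (left) at P21 than at P3, with all 11834 tested genes at the bottom and as dotted lines. The presynapse list has 50% lower and 12.5% higher, against 19.5% lower and 21.4% higher over all tested genes.

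The genes whose levels tracked each receptor or transporter gene most closely were taken by Pearson's correlation over the 15 arrays, among 8260 candidates, as a description with no test, since all arrays share the age groups. For Glra2 they were Gap43 (r = 0.958), a growth cone protein, Plagl1 (0.951) and Pkia (0.940). Glra1 was most like Slc4a3 (0.911), an anion exchanger, Klhdc1 (0.907) and Sdhaf2 (0.903). Nearest to Glrb were Nfatc2 (0.964), Mobp (0.959), a myelin gene, and Fam120b (0.959). Slc12a5 was nearest to Fam120b (0.957), Plekhb2 (0.954) and Tm2d3 (0.954). For Slc12a2 they were Cert1 (0.882), Acly (0.875) and Aftph (0.875), and for Gphn they were Hsp90b1 (0.911), Dera (0.895) and Add3 (0.892).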

How the data were processed

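The values are 1 intensity per probe set and array, linear and from 0 upwards, as deposited by the authors. GCRMA is named without version or role in the submitters' processing notes. GCRMA gives log2 values while the deposited ones are linear, so which tool produced the linear values is not given here. On all 20 arrays the mean intensity without the lowest and highest 2% was 100, so no normalization was added.

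Values were analysed as log2(intensity + 1), a scale that understates changes of dim genes. Differences, standard errors and adjusted p were obtained with limma 3.58.1 under R 4.3.3 (lmFit, eBayes, 3 ages in 1 fit of 15 arrays, Benjamini-Hochberg over 21805 probe sets within a contrast, called under 0.05). Adjusted p-values of genes are limma's throughout. Marker list means and control differences were tested by exact permutation of arrays. The annotation gives 20832 of 31099 probe sets 1 gene, 436 several, and 9831 are unnamed here. Symbols were updated through a rat RefSeq table of GRCr8.

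All probe sets of the 7 genes are named. From each related list up to 4 called genes with the largest P21 to P3 difference are named, and 3 genes most correlated with each called gene. The genes and lists were chosen with earlier results of these data known. The labels call the samples biological replicates, from separate animals, and their number limits the precision. Replicate numbers do not pair the samples: over 13 pairs with the same number the correlation of deviations from the group means was -0.06 to 0.08 (median 0.02), with 0 above 0.1. No arrays were identical. On simulated data for P21 vs P3 over 21805 probe sets, limma called 1, 19, 48 and 50 of 50 probe sets changed 1.5, 2, 4 and 8-fold, and 6 unchanged ones. No others were changed there and the noise was independent, while 37.0% of probe sets were called in the data. The counts therefore do not give the sensitivity of the real fit. Alternatives were other filters, scalings, a pseudocount of 16, 1 probe set per gene, another variance model, only the ages compared, the replicate block, the GAPDH covariate, all 20 arrays and each array left out.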

Additional observations from a re-analysis of the deposited data

Results flagged for a closer look

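Of 44 groups of 4 to 6 arrays tested for a single array far from the rest, 2 were marked, and chance marks about 1 in 20. The Glra3 probe set read 2.07 on 1 of the arrays of P8 replicates 5 to 9, and 5.26 to 5.69 on the others. The bright Glrb probe set read 10.45 on 1 P21 array, and 9.93 to 10.07 on the others.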

How the results depend on the processing

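Of 540 recomputed differences, 507 kept direction and call, 9 lost and 12 gained a call, and 12 reversed. With all 20 arrays, P21 over P3 had 2 called probe sets, against 6, with unchanged differences. Differences that turned with 20 arrays were -2.40 for Glra2, 0.41 for the dimmer Glra2 probe set and -0.15 for Glrb in P8 over P3, and -0.19 for Slc12a2, 0.90 for Gphn and -0.70 for the dimmer Glra2 probe set in P21 over P8. The 20-array fit adds 5 arrays with another scale of controls, and it moves the median difference of all tested probe sets to 0.27 for P8 over P3 and -0.34 for P21 over P8. With the GAPDH covariate 2 probe sets were called for P21 over P8, against 1: Glra2 stayed lower and its dimmer probe set was called higher, at 1.71 (adjusted p = 0.0371, 0.0371 to 0.495 over its alternatives). With this covariate the differences turned to 0.93 for the dimmer Glra2 probe set (P21 over P3), -0.0729 for Slc12a5 and -0.0331 for Glrb (P21 over P8). The cause was not tested. Leaving out each array in turn gave 5 to 6 called probe sets for P21 over P3, 2 to 4 for P8 over P3 (4 without P8 replicate 4) and 1 for P21 over P8. In these fits the dimmer Glra2 probe set ran from -0.60 to 0.0187 (P21 over P3, turned without P21 replicate 3), and Glrb ran from -0.0595 to 0.29 (P21 over P8, turned without P8 replicate 1 or 4). Array measures past the threshold were 5 to 12 of 36, against 10, with 5 when any P8 replicate was left out. With the replicate block 6, 2 and 1 probe sets were called for P21 over P3, P8 over P3 and P21 over P8, the counts without it, although samples share only a number; over all probe sets it called 785 higher and 828 lower for P8 over P3, against 1522 and 1700. The GAPDH covariate called 2284 higher and 2135 lower over all probe sets for P21 over P3, against 4047 and 4021, and a fit of only the ages compared called 830 higher and 881 lower for P21 over P8, against 1740 and 1745. Low signal limits Glra3, P3 Glra1 and P21 Glra2. Among the related genes it also limits Shmt1, Shisa7 and P3 Gabra6.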
